A study of Drosophila melanogaster and Drosophila yakuba and Drosophila virilis with 6 samples.

Results

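The genes described here are 5 transcription factor genes that pattern the wing imaginal disc of Drosophila: vestigial (vg, FBgn0003975), scalloped (sd, FBgn0003345), apterous (ap, FBgn0000099), Drop (Dr, FBgn0000492) and blistered (bs, FBgn0004101). They were taken by identifier from the authors' gene mappings, but the group was chosen with earlier results of these data known. All 5 had tags in D. melanogaster, among 12681 genes with a tag, and all 5 in D. virilis, among 13446. In D. yakuba 4 had a row, among 10896 genes with a tag, and sd had none under its D. melanogaster identifier. Of 7807 genes paired in the 3 species, 4 were members of the group.

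Imaginal discs are the larval epithelia from which adult appendages form. Selector genes give such a field of cells its identity: Vestigial has no DNA-binding domain of its own and acts with the TEAD-family protein Scalloped in the wing pouch, and Apterous, a LIM-homeodomain protein, marks the dorsal compartment. Drop, also called msh, is a homeodomain factor that acts downstream of Apterous in dorsal cells, and Blistered, the fly serum response factor, is needed in the intervein cells of the wing. Scalloped also partners with Yorkie in growth control, and it is used in the eye-antennal disc as well.

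Transcripts of eye-antennal and wing discs were measured by tag profiling, in which a short tag beside a site of the restriction enzyme NlaIII is sequenced and counted. Discs came from wandering larvae of the final instar of D. melanogaster (strain CantonS), D. yakuba and D. virilis, for which the labels give no strain. There was 1 library for each disc and species, 6 in all, with no treatment and no engineered allele named. The labels give no sex, no number of larvae or discs, and no statement on whether attached tissue was removed.

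The libraries held 1860370 to 5673047 tags, of which 0.886% to 3.09% lay at positions given to no gene. Markers of the labelled discs followed the labels. Of the wing disc markers measured, 5 of 6 were counted as higher in the wing library in D. melanogaster, 4 of 6 in D. yakuba and 5 of 6 in D. virilis, and of the eye-antennal markers 9 of 9, 7 of 8 and 8 of 8 were counted on the eye-antennal side. The wing marker rn had no tag under the reference's identifier in any library. The summed level of fat body markers was also higher in wing. Eye-antennal against wing, it was 15956 and 30779 CPM (tags per 1000000 scaled gene tags) for D. melanogaster, 2382 and 26443 for D. yakuba, and 272 and 9614 for D. virilis. None of the 6 was at 0 in D. melanogaster or D. yakuba, but Lsp1alpha and Lsp1beta were at 0 in both D. virilis libraries. Fbp2 went the other way in D. melanogaster, at 2076 and 1784 CPM. Brain markers summed to 81.3 to 150 CPM over the eye-antennal libraries and 31.4 to 44.6 over the wing libraries. The gene dpn made up most of each wing sum, at 41.2 (D. melanogaster), 29.8 (D. yakuba) and 30.6 CPM (D. virilis). Its eye-antennal levels were 14.0, 49.3 and 36.7 CPM. Ilp2 had 45, 10 and 34 eye-antennal tags and 0 wing tags in each species. For nerfin-1 the wing tags were 3, 4 and 0 against 174, 101 and 32. ChAT was higher in wing for D. yakuba, at 4.26 against 2.65 CPM. Wing disc myoblast markers summed to 197 eye-antennal and 266 wing CPM in D. melanogaster and to 84.8 and 117 for D. virilis. In D. yakuba their sums were nearly equal, at 110 and 109 CPM. Single markers differed in direction: in D. melanogaster the log2 ratio of wing over eye-antennal was 4.67 for Him and -2.38 for beat-IIIc. The order of the discs turned between species for larval muscle markers, with 1612 eye-antennal and 528 wing CPM in D. melanogaster, 157 and 83.3 for D. yakuba, and 779 and 2116 for D. virilis. It turned for tracheal markers as well, with 699 and 963 CPM in D. melanogaster, 933 and 551 for D. yakuba, and 1130 and 834 for D. virilis. The part of these tissues in the results below was not tested. In such bulk libraries fewer cells of a type and less RNA per cell cannot be told apart.

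Levels are CPM values, that is tags per 1000000 gene tags of the library after scaling by TMM factors (trimmed mean of M values) within each species, and each disc ratio is wing over eye-antennal. Ratios within a species carry exact conditional binomial (Clopper-Pearson) 95% intervals, which cover counting error only. Genes were required to have 10 tags or more in the libraries of a species together, and those whose interval stayed at 2-fold or beyond on 1 side were counted as higher there. With 1 library a group, no test was made within a species.

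ap, Dr and vg were counted as higher in the wing library in each of the 3 species, and sd and bs in none. That was 3 of 5 members in D. melanogaster, where 6.8% of 8134 measured genes were counted on the wing side, 3 of the 4 with a row in D. yakuba, where 3.5% of 8118 were, and 3 of 5 in D. virilis, where 4.65% of 8864 were. On the eye-antennal side, which held 7.97%, 3.66% and 6.76% of measured genes, 0 members were counted. Across species, with the species as the repeat, ap, Dr and vg passed the test on the wing side, and the background there was 0.185% of 5953 genes tested, against 0.487% on the eye-antennal side, where 0 members passed.

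**Figure D1:**
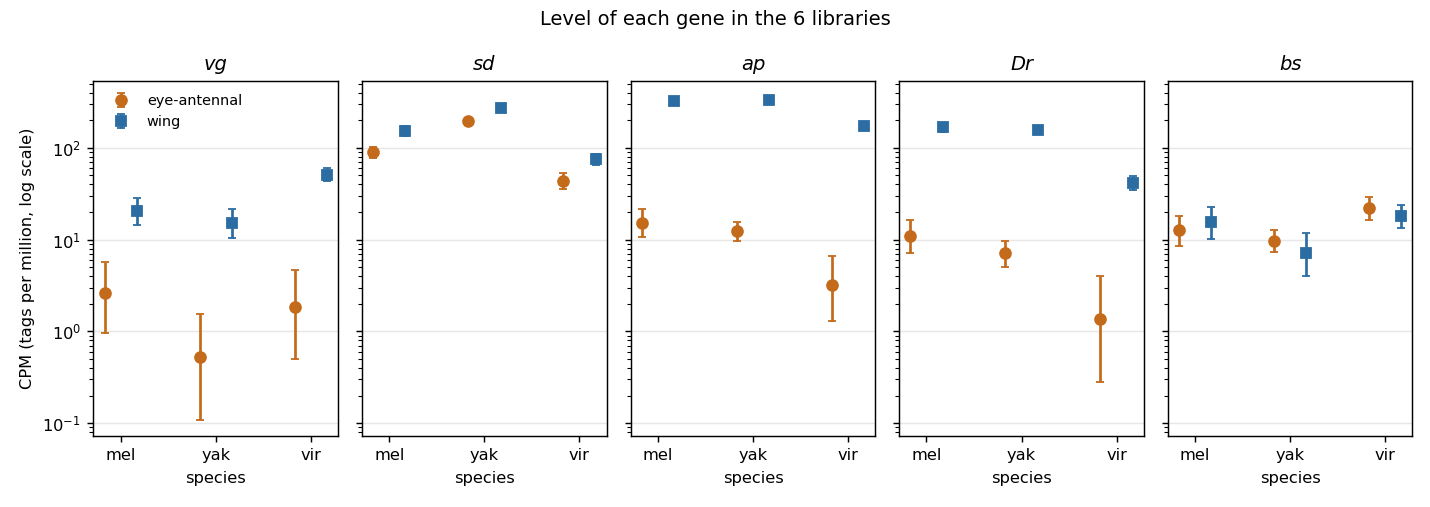
Level of each gene in CPM (log axis) by species, with eye-antennal libraries as circles and wing libraries as squares; bars are exact Poisson 95% intervals and cover counting error only. The wing squares of vg, ap and Dr lie above all 3 eye-antennal circles of the same gene, whereas the symbols of sd and bs overlap between discs; sd in D. yakuba is the gene FBgn0234705.

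ap lies on 2R at 5706202 to 5727525 on the minus strand (BDGP6.54). D. melanogaster gave 35 eye-antennal and 566 wing tags, D. yakuba 70 and 699, and D. virilis 7 and 488. In CPM these were 15.4 and 324, 12.4 and 331, and 3.21 and 172. The lowest wing library, D. virilis, stood above the highest eye-antennal library, D. melanogaster. The ratio was 21.1-fold (95% interval 14.98 to 30.6) in D. melanogaster, 26.8-fold (20.9 to 34.7) in D. yakuba and 53.6-fold (25.8 to 134) in D. virilis. Only 70 of the 8134 genes measured in D. melanogaster had a higher wing ratio, so that ap ranked 71, and it ranked 36 in D. yakuba and 32 in D. virilis. The mean log2 ratio was 4.92 ± 0.65 (SD, n = 3 species). In the edgeR quasi-likelihood fit across species the log2 difference was 4.78 ± 0.36 (SE), with a Benjamini-Hochberg adjusted p of 0.00722, and wing was higher in 3 of 3 species.

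Dr lies on 3R at 29556386 to 29565244 on the plus strand. D. melanogaster gave 25 eye-antennal and 292 wing tags of Dr, D. yakuba 40 and 332, and D. virilis 3 and 118. These are levels of 10.97 and 167, 7.07 and 157, and 1.38 and 41.6 CPM. Every wing library stood above every eye-antennal library, and both D. virilis libraries were the lowest of their disc. Wing over eye-antennal came to 15.2-fold (10.1 to 23.9) in D. melanogaster, 22.2-fold (15.99 to 31.7) in D. yakuba and 30.2-fold (10.1 to 149) in D. virilis. Their intervals overlap, and the widest is that of D. virilis, which rests on 3 eye-antennal tags. The mean log2 ratio was 4.35 ± 0.41 (SD, n = 3 species), and the edgeR difference was 4.26 ± 0.35 (SE, Benjamini-Hochberg adjusted p = 0.00722), with wing higher in 3 of 3 species. With the position of most tags only, the call of Dr was lost in the same edgeR test (4.67, adjusted p = 0.0650).

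vg lies on 2R at 12884201 to 12899385 on the plus strand. It had few eye-antennal tags: 6 against 36 wing tags in D. melanogaster, 3 against 32 in D. yakuba, and 4 against 145 in D. virilis. The levels were 2.63 and 20.6, 0.530 and 15.2, and 1.83 and 51.1 CPM. The 3 wing libraries again stood above the 3 eye-antennal ones, with D. virilis the highest of the wing libraries. The ratios were 7.82-fold (3.26 to 22.7) in D. melanogaster, 28.6-fold (8.94 to 146) in D. yakuba and 27.9-fold (10.7 to 104) in D. virilis, and these intervals overlap. The mean log2 ratio was 4.05 ± 1.02 (SD, n = 3 species). The edgeR difference was 4.04 ± 0.55 (SE, Benjamini-Hochberg adjusted p = 0.0405), with wing higher in 3 of 3 species. The call of vg was close to the threshold and was lost without D. yakuba (adjusted p = 0.0844), in the authors' genome mapping (0.0822) and with the position of most tags only (0.129), each by the same edgeR test.

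vg, ap and Dr were the members whose 3 wing libraries all stood above their 3 eye-antennal libraries. Of the 5953 genes tested, 103 (1.73%) had that order.

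**Figure D2:**
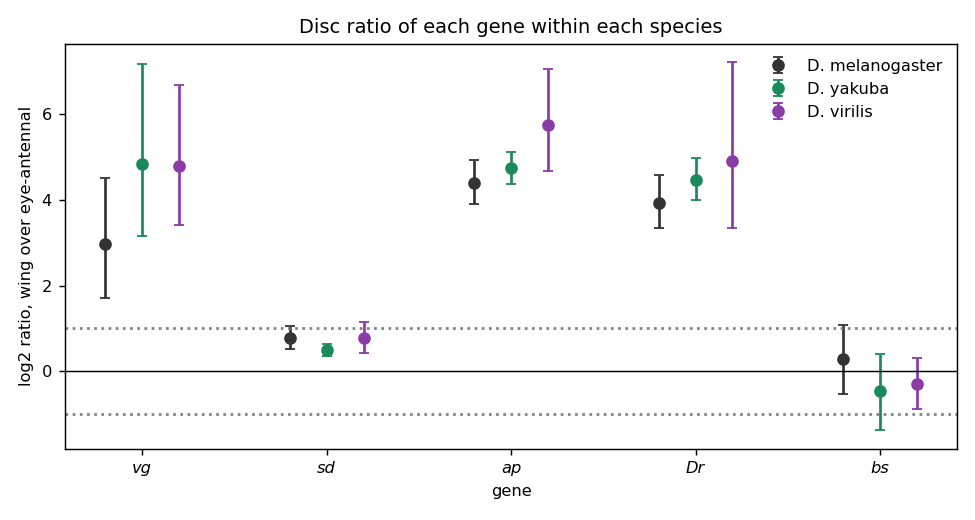
Log2 ratio of wing over eye-antennal for each gene in each species, with exact conditional binomial 95% intervals; dotted lines mark a 2-fold ratio in either direction. The intervals of vg, ap and Dr lie wholly above the upper dotted line in the 3 species, and those of bs include 0 in each.

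sd lies on X at 15804370 to 15827682 on the plus strand, with the clathrin heavy chain gene Chc on the other strand 304 bases downstream. In D. melanogaster it gave 203 eye-antennal and 268 wing tags, or 89.0 and 153 CPM, and in D. virilis 95 and 212 tags, or 43.5 and 74.7 CPM. In D. yakuba the gene mapping gave the gene FBgn0234705 1102 and 580 tags, or 195 and 275 CPM, and paired it with no D. melanogaster gene. The authors' genome mapping placed 13 D. yakuba tag positions on sd, 11 of which the gene mapping gave to FBgn0234705 and 2, with 54 and 12 tags, to the partner of Chc. FBgn0234705 is therefore set beside sd as a bridge made after these values were seen.

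sd was on the wing side in each species, at ratios below 2-fold. The ratio was 1.72-fold (1.43 to 2.08) in D. melanogaster, 1.41-fold (1.27 to 1.56) for the D. yakuba gene and 1.72-fold (1.34 to 2.21) in D. virilis. The groups overlap, since the D. yakuba eye-antennal library stood above the wing libraries of both other species. The mean log2 ratio was 0.68 ± 0.16 (SD, n = 3 species). With the D. yakuba gene included, the edgeR difference was 0.61 ± 0.24 (SE) and did not pass the test (Benjamini-Hochberg adjusted p = 0.463). Leaving out the D. melanogaster site on the side of Chc, which held 41 eye-antennal and 28 wing tags, gave 1.93-fold (1.58 to 2.37).

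bs lies on 2R at 24342861 to 24376473 on the plus strand and is overlapped on the other strand by asRNA:bsAS and CG44812. Since the tags carry no stated strand, reads of these genes cannot be told apart from those of bs by the sums. Strand could be inferred only at sites with paired positions 18 bases apart. Of 6368 such pairs in genes, 86.3% had more tags on the sense side. With both discs together, bs had 45 sense, 4 antisense and 7 unassigned tags for D. melanogaster. The D. yakuba split was 66, 4 and 0. That of D. virilis was 8, 1 and 90, so most tags there stayed unassigned. The part of the overlapping genes was not tested. D. melanogaster gave 29 eye-antennal and 27 wing tags of bs, D. yakuba 55 and 15, and D. virilis 48 and 51. The levels were 12.7 and 15.4, 9.72 and 7.10, and 22.0 and 17.97 CPM. D. virilis held the highest library of each disc, and the discs overlapped. The wing library was 1.21-fold (0.691 to 2.12) higher in D. melanogaster, while the eye-antennal library was 1.37-fold (0.762 to 2.61) higher in D. yakuba and 1.22-fold (0.808 to 1.85) higher in D. virilis. Each interval includes 1. The mean log2 ratio was -0.14 ± 0.37 (SD, n = 3 species), and the edgeR difference of -0.23 ± 0.37 (SE) did not pass the test (Benjamini-Hochberg adjusted p = 0.875).

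**Figure D3:**
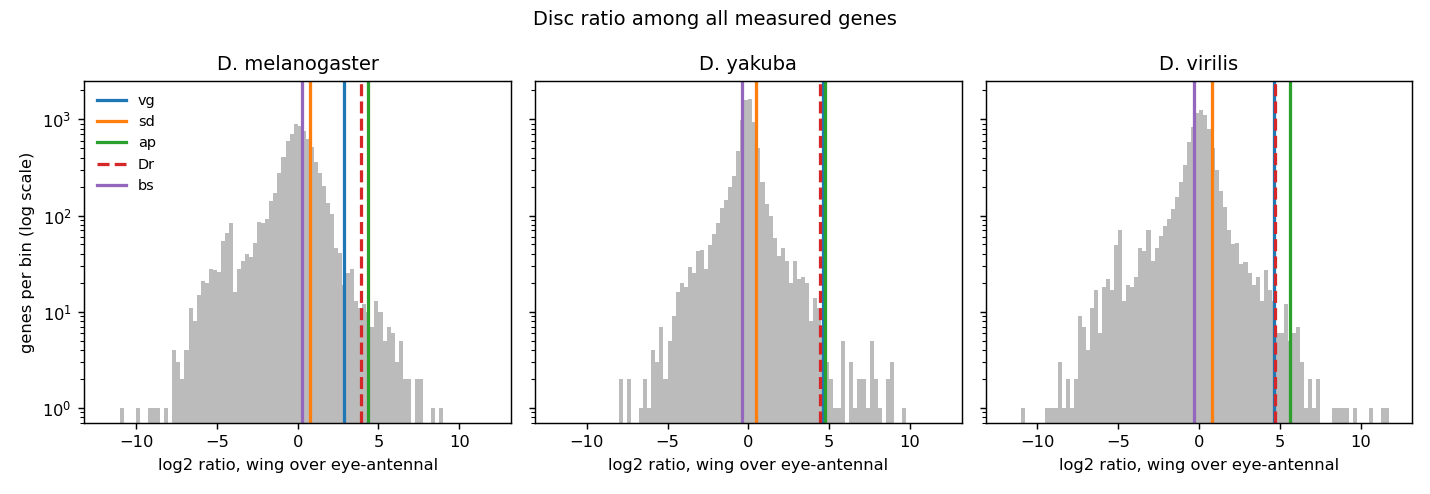
Number of measured genes (log axis) by log2 ratio of wing over eye-antennal, in bins of 0.25, with the members as vertical lines (Dr dashed). Lines of ap and Dr stand in the right tail in each species, that of vg at rank 173 of 8134 in D. melanogaster and rank 39 of 8118 in D. yakuba, and those of sd and bs in the central mass; in D. virilis the lines of vg and Dr nearly coincide.

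Tags of ap and Dr came mainly from 1 position. For ap the position with the most tags held 91.2% of wing tags in D. melanogaster, 88.6% in D. yakuba and 96.9% in D. virilis, and for Dr it held 94.5%, 95.5% and 73.7%. The wing tags of vg were more spread, with 47.2%, 46.9% and 66.9% at that position. At its top position alone ap gave 29 and 516 tags (D. melanogaster), 66 and 619 (D. yakuba) and 6 and 473 (D. virilis), the last a ratio of 60.6-fold (27.6 to 166). The top position of Dr gave 18 and 276, 38 and 317, and 0 and 87 tags. For the last, the lower bound of the 95% interval was 17.7-fold higher in wing. Setting its 0 to a floor of 3 tags gave 22.3-fold, without the counting error of the wing tags. The disc ratio of both genes was on the wing side at the top position as well as in the sum. That position was chosen by its tags over both discs and holds most of the sum, so it is not a separate check.

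The few eye-antennal tags of vg lay in part elsewhere in the gene. Of its 13 eye-antennal tags over the 3 species, 8 were at positions with no wing tag, against 10 of 68 for Dr and 4 of 112 for ap. The share over all genes was not computed. In total the eye-antennal libraries had tags at more positions than the wing libraries. These were 70709 against 37526 in D. melanogaster, 52984 against 36452 in D. yakuba and 94862 against 52970 in D. virilis. The top position of vg was likewise chosen by its tags over both discs. It held 1 eye-antennal and 17 wing tags in D. melanogaster, 2 and 15 for D. yakuba, and 0 and 97 for D. virilis. Wing was 22.2-fold (3.47 to 926) higher there in D. melanogaster and 20.1-fold (4.67 to 181) in D. yakuba. In D. virilis it was at least 24.9-fold higher against the floor of 3 tags. The top position of sd in D. melanogaster held 82 and 159 tags, 2.53-fold (1.92 to 3.34) higher in wing, while its other positions together held 121 and 109. The top position was 1.44-fold (1.27 to 1.63) higher in wing for the D. yakuba gene and 1.53-fold (1.13 to 2.08) in D. virilis.

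**Figure D4:**
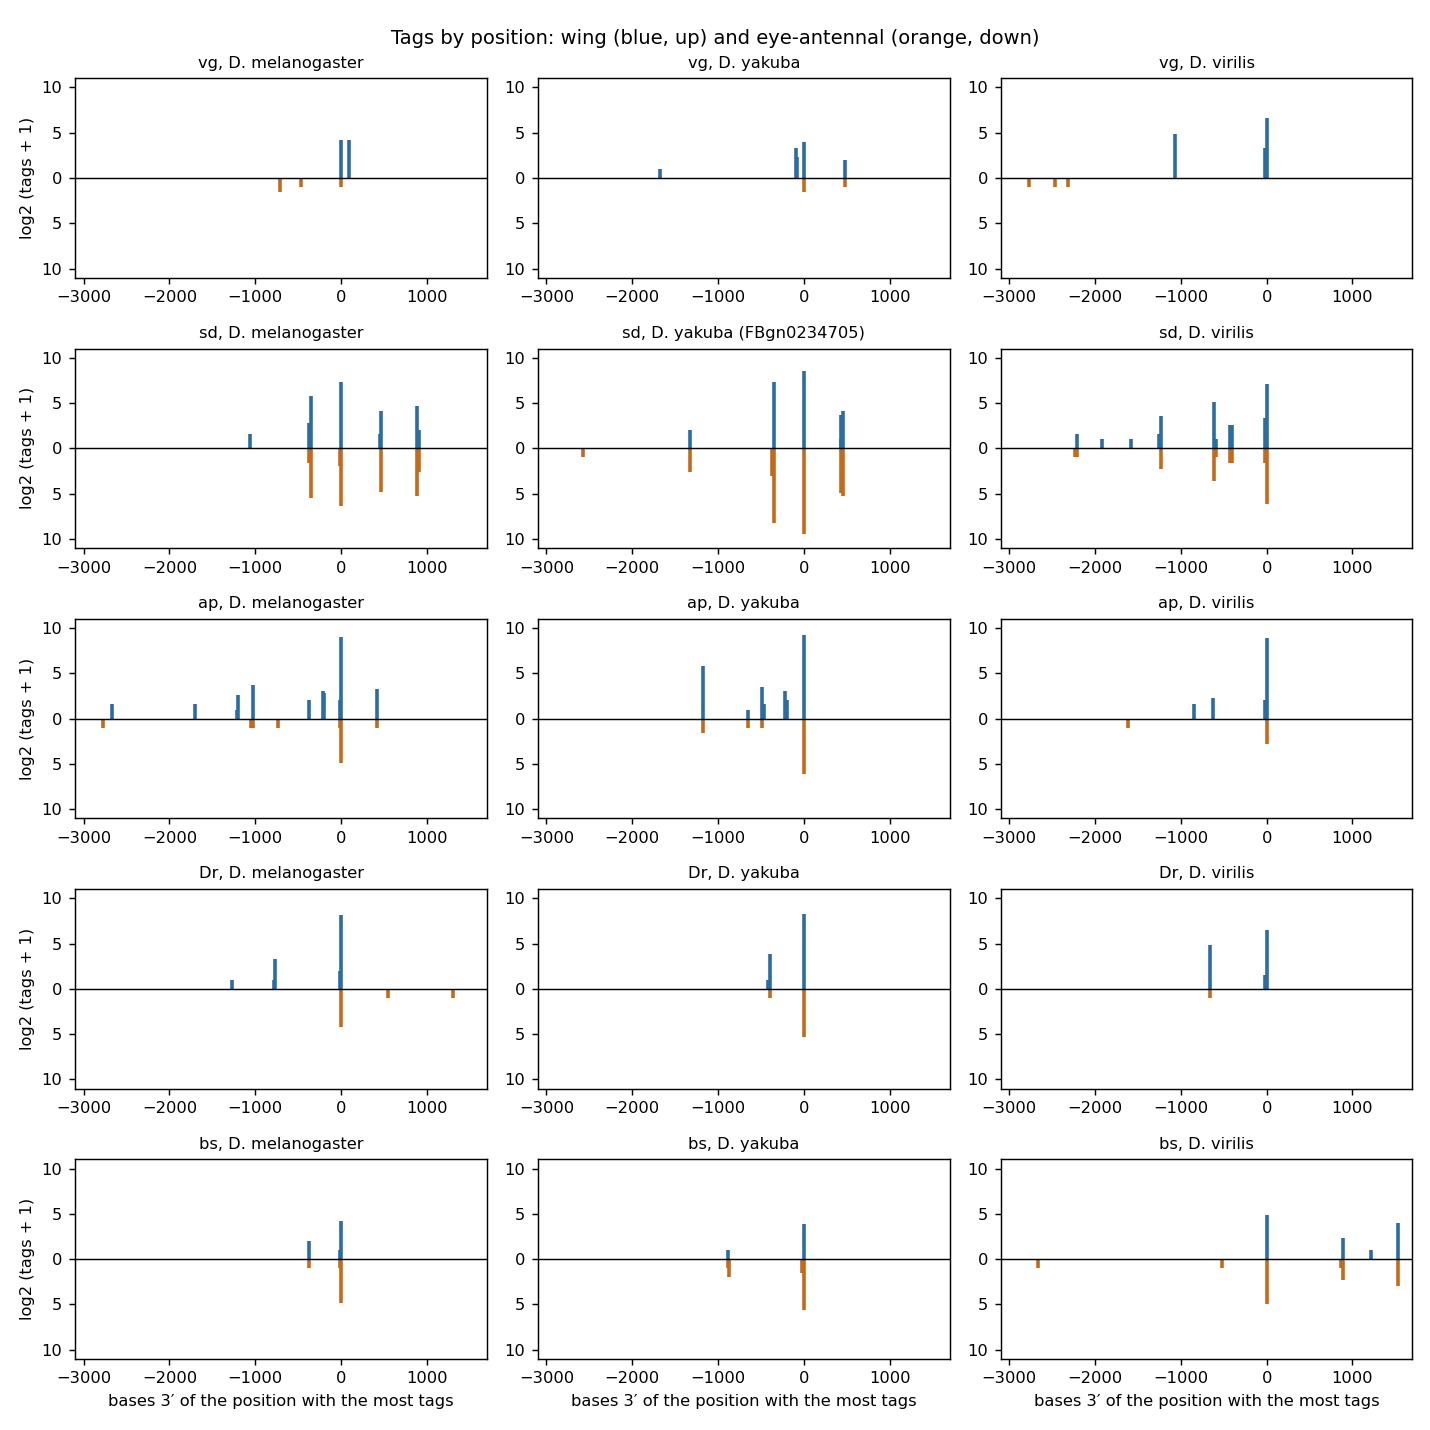
Tags at each position as log2 (tags + 1), wing upwards and eye-antennal downwards, against distance in bases from the position with the most tags of that gene and species. The drawing covers 3000 bases 5′ to 1600 bases 3′ and leaves out 42 of 140 positions, which held at most 7 tags each; sd has tall lines in both discs, and the tallest wing lines of ap and Dr stand at the top position, with second wing lines of 57 tags for ap in D. yakuba and 28 tags for Dr in D. virilis.

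The same site led in D. melanogaster and D. yakuba for 4 of 5 members, sd, ap, Dr and bs, when positions were matched through the authors' genome mapping. Over 6471 genes with at least 10 tags in each, the share was 51.1%. The leading sites of vg were shared as well, in the reverse order. The site of 1 and 17 tags in D. melanogaster held 0 and 9 in D. yakuba. That of 0 and 17 tags held 2 and 15. In D. virilis 3 members were placed with at least 10 tags and 0 had the same leading site, against 12.5% of 5117 genes. At the shared site of ap the tags were 29 and 516 in D. melanogaster and 66 and 619 in D. yakuba, and at that of bs 27 and 17 against 49 and 14. For vg, sd and Dr the D. virilis position with the most tags in that mapping was placed at another base than the leading D. melanogaster site. For ap and bs no D. virilis position with at least 10 tags was placed. Sites were matched by exact base and only among placed positions, so a missing match does not show that another site leads in D. virilis.

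Levels were also compared between species, with the disc as a block in the same edgeR fit and Benjamini-Hochberg adjustment. D. virilis was lower than D. melanogaster for Dr (log2 -2.19 ± 0.42 SE, adjusted p = 0.00538) and ap (-1.26 ± 0.41, adjusted p = 0.0398), which makes 2 of the 4 paired members where 24.7% of genes were called lower and 23.9% higher. D. virilis was also lower than D. yakuba for Dr (-2.03 ± 0.41, adjusted p = 0.00621) and ap (-1.30 ± 0.40, adjusted p = 0.0312), where 26.1% of genes were called lower and 25.8% higher. Both calls of ap were lost with the top position only (adjusted p = 0.100 and 0.0758), while those of Dr passed, and in the genome mapping, which kept few D. virilis tags of ap, its difference from D. melanogaster was -4.88. vg and bs passed in no pair of species, although vg was higher in D. virilis than in D. yakuba under scaling by total tags (1.76, adjusted p = 0.0462, against 1.67 and 0.0552 with TMM). Between D. yakuba and D. melanogaster 0 of the 4 passed, where 16.5% of genes were called higher and 17.6% lower. With FBgn0234705 as sd, sd was higher in D. yakuba than in D. melanogaster (1.15 ± 0.30, adjusted p = 0.0230) and lower in D. virilis than in D. melanogaster (-0.92 ± 0.30, adjusted p = 0.0397) and D. yakuba (-2.07 ± 0.30, adjusted p = 0.00190). The call of sd between D. virilis and D. melanogaster was lost with the top position only (-0.37, adjusted p = 0.472), in the genome mapping (-0.62, adjusted p = 0.127) and without a filter (adjusted p = 0.0513). Differences in tag sites between species were not separated from differences in transcript level.

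Genes that work with the members were read from lists. The lists were written with earlier results of these data known. Of their genes, nub, pdm2, rn, Sox15, tsh and pnr are also among the wing disc markers read above. The counts and medians of these lists are therefore not independent of that choice. Among partners of Vestigial and Scalloped and other wing pouch genes, 2 of 10 tested genes rose on the wing side across species and 0 on the eye-antennal side, with a median log2 difference of 0.79 against -0.02 over all genes tested. These were the POU factor nub, at the threshold (4.38 ± 0.67 SE, edgeR Benjamini-Hochberg adjusted p = 0.05 after rounding and just below it before), and the POU factor vvl (3.53 ± 0.53, adjusted p = 0.0497). Both calls were lost under several alternatives, among them leaving out D. melanogaster (adjusted p = 0.0761 and 0.0953). nub gave 12 eye-antennal and 161 wing tags in D. melanogaster, 0 and 42 in those of D. yakuba and 9 and 146 in those of D. virilis. The paralogue of nub, pdm2, had a difference of 4.46 ± 1.07 and did not pass (adjusted p = 0.169). The growth coactivator gene yki, whose protein binds Scalloped, had a difference of -0.16 ± 0.25 (adjusted p = 0.867), and Tgi, a corepressor partner of Scalloped, 0.23 ± 0.43 (adjusted p = 0.897). Tgi was 1.59 in D. melanogaster, -0.02 in D. yakuba and -0.56 in D. virilis on the log2 scale.

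Among partners of Apterous and genes of the dorsoventral boundary 0 of 12 tested genes passed in either direction, and the median was 0.00. Of the 15 genes listed, Dl was not matched to an identifier. Bx and wg had no tag under the reference's identifier in any library, so these genes are not covered. The Notch ligand gene Ser had the largest wing-side difference of those named, 1.51 ± 0.28 (edgeR Benjamini-Hochberg adjusted p = 0.0825), and it was on the wing side in 3 of 3 species. fng, whose product modifies Notch in dorsal cells, gave 0.06 ± 0.35 (adjusted p = 0.969), and its sign changed with the scaling and the species included. The homeobox genes ct and Lim1 gave -1.41 ± 0.40 and -2.13 ± 0.61 (adjusted p = 0.240 and 0.248).

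Of 9 tested vein and intervein genes 0 passed, with a median of 0.27. rho, which activates EGF receptor ligands in veins, gave -2.62 ± 0.43 (edgeR Benjamini-Hochberg adjusted p = 0.0592) and was on the eye-antennal side in 3 of 3 species. Of 9 notum and hinge genes 1 rose on the wing side, with a median of 0.28. That gene was Sox15, a factor of the wing hinge (6.76 ± 0.51, adjusted p = 0.00722), with 1 and 95 tags in the D. melanogaster libraries, 0 and 43 in those of D. yakuba and 5 and 596 in those of D. virilis.

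**Figure D5:**
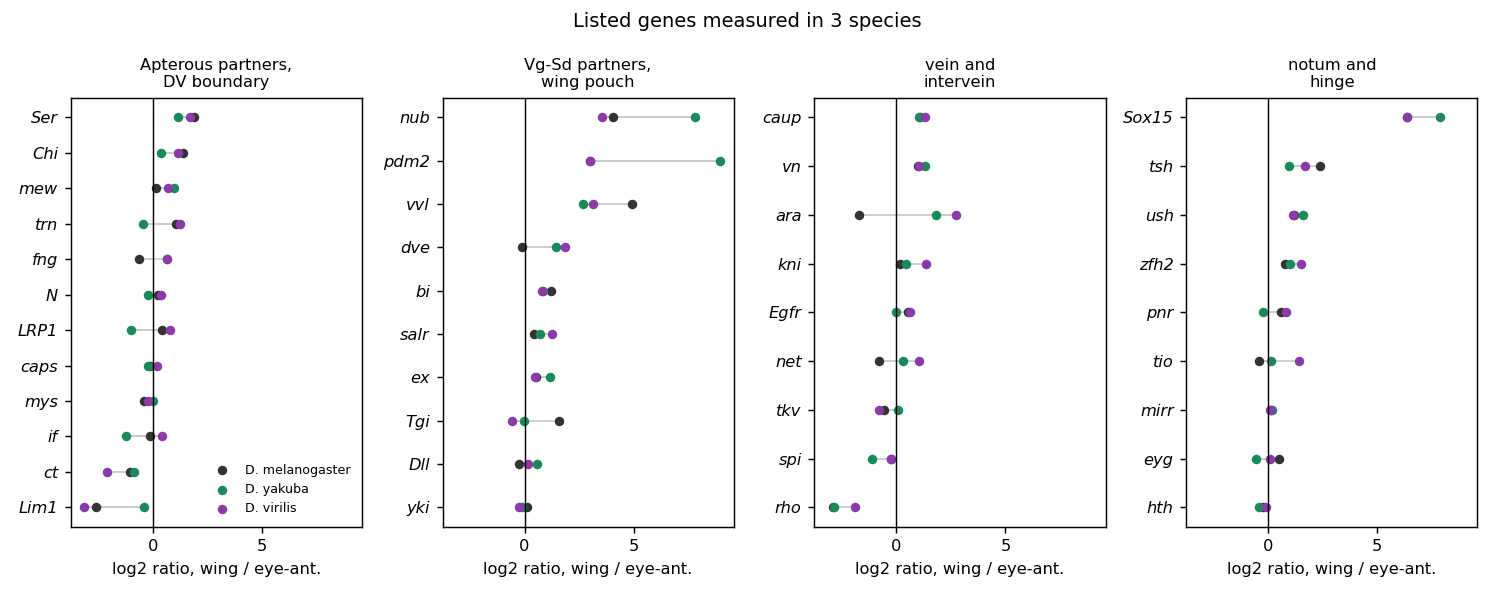
Log2 ratio of wing over eye-antennal for listed genes measured in the 3 species, 1 point per species, grouped by list and ordered by the mean. Points of nub, vvl and Sox15 lie right of 0 in the 3 species, those of rho left of 0, and those of fng on both sides.

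The genes whose 3 disc ratios were most like those of each member were sought among 4453 genes outside the group with at least 20 tags per species. Distance was Euclidean, between log2 ratios over the 3 species. Members were not candidates for each other, so another member may lie nearer than the genes named here. For vg these were Antp, a Hox gene of the thorax, at 1.12, Fbp1 at 1.33 and Hn at 1.82. For Dr they were Fbp1 at 1.55, Antp at 2.08 and vvl at 2.55, and for ap Fbp1 at 2.47, Antp at 2.55 and Obp99b at 3.03. Fbp1, a fat body gene, was thus among the nearest 3 genes outside the group for vg, ap and Dr. It rose on the wing side across species (3.37 ± 0.35, edgeR Benjamini-Hochberg adjusted p = 0.0200). The nearest genes of sd were lqf at 0.0378, CG2915 at 0.0802 and CG11560 at 0.122, and those of bs Cdk1 at 0.0859, Ldaf1 at 0.0975 and YL-1 at 0.112.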

How the data were processed

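Tags of 6 libraries were analysed, 1 per disc and species. Per the file headers, the deposited files give counts of tags per position and the gene assigned to it by the authors. The submitters' processing notes name Bowtie, version 0.12.1, and no build, mismatch limit or treatment of repeated matches is given in the sources used here. Counts were summed per gene and library over all positions, because no strand is stated. Genes were paired by the D. melanogaster identifier in the files. The reference pairs ap with another identifier than the files (FBgn0267978), so its place was matched by symbol. Gene places come from BDGP6.54.

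Within a species, libraries were scaled by TMM (edgeR 4.0.16) and log2 ratios used 0.5 added tags. Across species, edgeR quasi-likelihood tests (R 4.3.3) had species as block and disc as tested term, with 2 residual degrees of freedom, filterByExpr by disc group with a minimum count of 10, and a Benjamini-Hochberg threshold of 0.05. The form of that filter was chosen after its first form, by the full design, had been run; the first form is kept as an alternative. The SE of each edgeR difference was derived from its test, as the absolute log2 difference divided by the square root of the F statistic. DESeq2 1.42.0, other scalings, filters and mappings, the top position alone and leaving out each species were the alternatives. Fits were tested on simulated data drawn for well-covered genes. Nothing says whether libraries came from separate collections, so p-values measure only the spread between these libraries. The members and lists were chosen with earlier results of these data known. Named genes were the members, from each list the 3 of most tags and the 3 of largest mean disc ratio, not all of which are described. The 3 genes outside the group nearest to each member were named as well. Symbols with no row under the reference's identifier may stand under older identifiers in the files.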

Additional observations from a re-analysis of the deposited data

Results flagged for a closer look

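The disc difference of bs went in different directions between species: its log2 ratio of wing over eye-antennal was 0.28 in D. melanogaster, -0.42 in D. yakuba and -0.29 in D. virilis. With 1 library per disc and species the difference between species was not tested, and the interval of each ratio includes 1.

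Tags of the D. yakuba gene FBgn0234705 stand outside the paired comparison, because the gene mapping pairs it with no D. melanogaster gene. Its eye-antennal library held 1102 tags and its wing library 580, above the 3 tags that a count of 0 allows.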

How the results depend on the processing

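Within species, vg, ap and Dr were on the wing side in 20 of 20 values over species and settings each (log2 2.50 to 7.39, 1.26 to 5.77 and 3.75 to 6.94), sd in 21 of 21 (0.44 to 1.25) and bs in 6 of 20 (-0.65 to 0.29). The value 1.26 is ap in the D. virilis genome mapping, which kept 3 and 11 of its tags. Across species vg did not pass without the species block (log2 4.08), in the genome mapping (4.50) or with the top position only (5.14), and leaving out 1 species gave 3.71 to 4.67. Without the replicate block ap (4.67) and Dr (4.16) did not pass, nor did Dr with the top position only (4.67). bs turned to 0.12 in the genome mapping. The cause of these changes was not tested.

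Genes higher in wing numbered 11, and 69 with DESeq2, 7 with DESeq2 size factors, 22 without a filter, 3 at a minimum count of 50, 0 without the block (edgeR, 128 genes in both directions at an unadjusted p under 0.05), 6 in the genome mapping, 4 with the top position and 8 to 33 with 1 species left out. Genes higher in eye-antennal numbered 29, and in the same settings 136, 17, 82, 17, 0, 29, 5 and 24 to 97. Of alternatives added after seeing the data, positions with at least 2 tags gave 16 and the filter by the full design 44, under which vg, ap and Dr passed (adjusted p = 0.0359, 0.00475 and 0.00539). With the top position 1 member, not 2, passed between D. virilis and each other species. Scaling by total tags moved the median of all genes to -0.16 between D. yakuba and D. melanogaster and turned ap there to -0.18. Dr turned to 0.012 there with the top position, and bs to -1.05 and -0.76 in the genome mapping (D. virilis against D. melanogaster and D. yakuba).

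Listed genes that changed sign did not pass in the edgeR fit. With total tags fng, N, pio and dpn fell to -0.012, -0.014, -0.015 and -0.016. Without the block fng, N, Tgi and dpn gave -0.082, -0.056, -0.00041 and -0.086, and Mlc1, Mlc2 and Tm2 gave 0.086, 0.030 and 0.69. With 1 species left out the ranges were -0.26 to 0.55 for fng, -0.034 to 0.22 for N, -0.73 to 0.063 for if, -0.37 to 0.70 for Tgi, -0.14 to 2.26 for ara, -0.38 to 0.41 for pio, -0.58 to 0.53 for dpn, -1.59 to 0.24 for Mlc2 and -1.93 to 0.97 for Tm2. vg and bs were not tested at a minimum count of 50.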
